A study of Homo sapiens with 8 samples.

Results

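Genes that respond to or carry signals of the bone morphogenetic proteins (BMPs) were measured by RNA sequencing in MHCC-97H cells, an established human liver cancer line kept in medium with serum. They are 10 of the 20263 genes in the deposited table, taken by symbol: ATOH8, ID1, ID2, ID3, SMAD6, SMAD9 and HAMP, which BMP signalling is known to induce, the ligand BMP4, and the receptors BMPR1A and BMPR2. ATOH8 heads the group because earlier results of these data showed it higher with lenvatinib, so the genes were chosen by the comparison of lenvatinib with DMSO, and its values and calls for them are a description that supports nothing further. The cells had 24 hours with lenvatinib, an inhibitor of VEGF and FGF receptor kinases used against liver cancer, at 40, 60, 80 or 100 µM (1 library per dose), or with its solvent DMSO (4 libraries). All 8 libraries come from the same cell line, so the work models cultured tumour cells without the endothelial and immune cells of a liver. Whether each DMSO library is a culture of its own is not in the labels, so p-values reflect spread among libraries and that spread may be technical. The lenvatinib arm pools 4 doses, so its SD and the SE and p-values between arms count any dose difference as spread.

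BMPs are secreted ligands. A ligand joins a type II receptor such as BMPR2 to a type I receptor such as BMPR1A, which phosphorylates the transcription factors SMAD1, SMAD5 and SMAD9, and these enter the nucleus with SMAD4. Their classic targets are the ID genes, whose products have a helix-loop-helix but no DNA-binding basic region and so hold E proteins off DNA, and SMAD6, an inhibitory SMAD that dampens the same pathway. ATOH8 is a basic helix-loop-helix factor, and HAMP encodes hepcidin, the iron hormone that hepatocytes make in response to BMP6.

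The libraries held between 10181973 and 37384578 counts, the lowest at 60 µM, where 11076 genes had reads against 13290 to 14167 genes at the other doses and 13590 to 14340 in DMSO. They differed along the GC content of genes. The GC slope of a library says how far its log2 levels depart from the 8-library average for every 10 points of transcript GC. It was 0.67, 1.82, -0.58 and -0.60 at 40, 60, 80 and 100 µM, against 0.28, -0.50, -0.99 and -0.10 in DMSO libraries 1 to 4. Of 9 hepatocyte markers, FGB and HNF4A alone reached the level that was tested (a mean of 1 CPM, the count scaled to a common library size). TTR had 0 reads, and ALB, AFP, APOA1, APOA2 and TF had a few reads at 60 µM and 0 in the other libraries. The epithelial keratins KRT8 and KRT18 were abundant, at 1331 to 7576 CPM with lenvatinib and 1824 to 8598 CPM in DMSO, while CDH1 and EPCAM were under that level. Of 6 markers of blood, endothelial cells and fibroblasts, COL1A1 and VWF reached it, PTPRC and COL1A2 had 0 reads, and PECAM1 had 4.

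ATOH8 was higher at every dose of lenvatinib than in any DMSO library. ATOH8 (ENSG00000168874, GRCh38 chromosome 2, 85753894 to 85788066, plus strand) had 2138, 1322, 2043 and 1702 reads at 40, 60, 80 and 100 µM, against 699, 545, 416 and 683 reads in DMSO libraries 1 to 4. Scaled by TMM, which adjusts library sizes for composition, that is 91.4, 213, 42.7 and 38.5 CPM with lenvatinib, against 25.3, 15.3, 9.98 and 20.3 CPM in DMSO. The lowest lenvatinib library thus stood above the highest DMSO library, and the 60 µM library lay far above the other doses. The means were 96.3 ± 81.2 CPM with lenvatinib and 17.7 ± 6.58 CPM in DMSO (SD, n = 4 each), a ratio of 5.43. The lenvatinib SD here is over 4 doses, not over replicates of 1 dose. In bulk RNA, more cells that express a gene and more of its RNA per cell cannot be told apart.

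Some marker genes also differed between the arms in which ATOH8 differed. Of the 9 hepatocyte markers, 2 were lower at every dose than in any DMSO library. Over all 11827 genes tested, 3.38% were lower and 3.08% higher in this way. FGB, a fibrinogen chain, was at 0.128, 0, 0.334 and 0.679 CPM across the doses, against 2.35, 5.70, 8.38 and 3.54 CPM in DMSO. FGB is AT-rich, with 41.4% GC. In DMSO it was lowest in library 1 (GC slope 0.28) and highest in library 3 (-0.99). At 80 and 100 µM (-0.58 and -0.60) FGB was also below DMSO library 2 (-0.50). Whether the GC axis had a part in the FGB levels was not tested. HNF4A, a hepatocyte transcription factor, was at 3.42, 1.29, 1.00 and 1.40 CPM, against 8.73, 9.83, 6.86 and 8.24 CPM in DMSO. The sum over the 9 markers was 1.52 to 7.56 CPM with lenvatinib and 11.3 to 15.9 CPM in DMSO. Of the 4 epithelial markers CDH1 was lower without overlap (0.241 ± 0.176 CPM with lenvatinib, 1.38 ± 0.251 CPM in DMSO), and the sum of the 4 overlapped, at 3688 to 13175 CPM with lenvatinib and 5036 to 14374 CPM in DMSO. Of the 6 blood, endothelial and fibroblast markers COL1A1 was higher without overlap in CPM (35.7 ± 4.92 CPM with lenvatinib, 26.8 ± 2.37 CPM in DMSO) but not in TPM. The sum of the 6 was 32.8 to 46.4 CPM with lenvatinib and 26.3 to 31.5 CPM in DMSO. That sum is mostly COL1A1, which alone was at 31.5 to 42.5 CPM with lenvatinib and 23.9 to 28.8 CPM in DMSO. The part of these differences in the ATOH8 values was not tested.

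The fitted size of the ATOH8 difference changed with the libraries and the covariate in the fit, while its sign stayed the same. The part of the GC axis in that size was not tested. The fitted log2 fold change was 2.44 ± 0.61 (SE) in the comparison of both arms, 1.70 ± 0.42 without the 60 µM library, and 1.51 ± 0.10 when the GC slope was added to the fit as a covariate. With the covariate it was 1.53 ± 0.09 without the 60 µM library and ran from 1.46 to 1.55 when each library was left out in turn. ATOH8's longest annotated transcript has 55.3% GC, above 68.6% of the genes tested. Within the DMSO libraries alone its log2 level rose by 1.05 per unit of GC slope (4 libraries, a description).

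**Figure D1:**
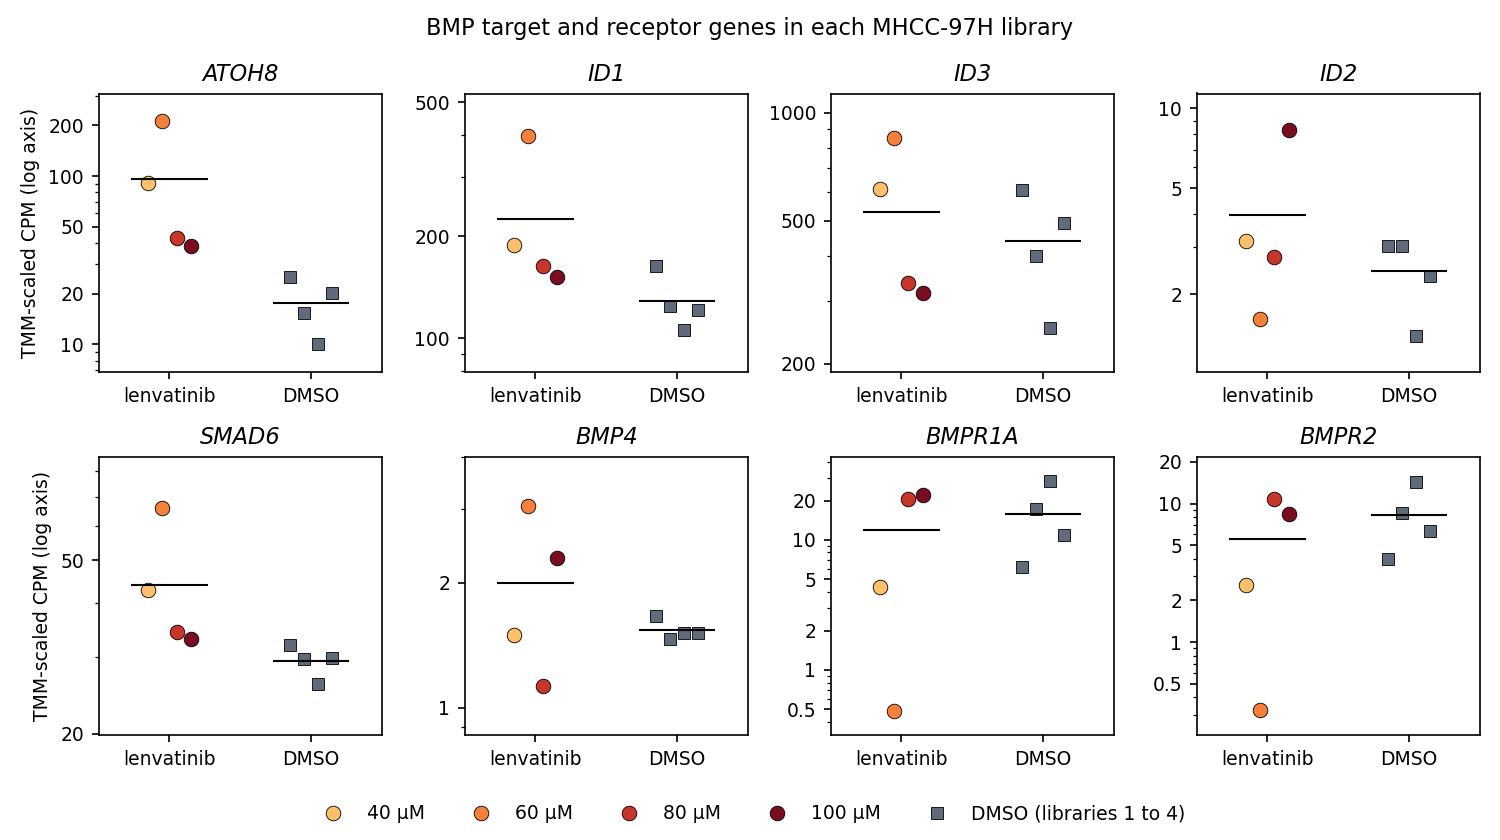
Levels of the 8 tested genes (TMM-scaled CPM, log axis) in the lenvatinib libraries (circles, shaded by dose) and the DMSO libraries (squares), with lines at the arm means. All 4 ATOH8 circles, from 38.5 to 213 CPM, lie above the highest DMSO square at 25.3 CPM, while BMPR1A and BMPR2 span more than the distance between arms.

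The promoter windows of ATOH8, SMAD6, ID1 and ID3 are shown because these are the GC-rich, well expressed targets on which the results turn. Each window runs from 250 bases before to 50 after the RefSeq transcription start (GRCh38.p14), 5′ to 3′ on the gene's strand: ATOH8 chr2:85753741-85754040 (plus), SMAD6 chr15:66701986-66702285 (plus), ID1 chr20:31605039-31605338 (plus) and ID3 chr1:23559452-23559751 (minus). Capitals mark GTCT or its complement AGAC, the short motif that SMAD proteins bind, and CANNTG, the E-box that basic helix-loop-helix factors bind.
ATOH8: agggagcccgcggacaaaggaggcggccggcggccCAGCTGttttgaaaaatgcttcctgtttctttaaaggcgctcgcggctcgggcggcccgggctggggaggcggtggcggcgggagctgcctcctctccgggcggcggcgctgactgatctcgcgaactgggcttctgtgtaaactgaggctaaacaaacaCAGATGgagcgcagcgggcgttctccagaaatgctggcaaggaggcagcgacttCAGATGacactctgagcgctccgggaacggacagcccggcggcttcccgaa
SMAD6: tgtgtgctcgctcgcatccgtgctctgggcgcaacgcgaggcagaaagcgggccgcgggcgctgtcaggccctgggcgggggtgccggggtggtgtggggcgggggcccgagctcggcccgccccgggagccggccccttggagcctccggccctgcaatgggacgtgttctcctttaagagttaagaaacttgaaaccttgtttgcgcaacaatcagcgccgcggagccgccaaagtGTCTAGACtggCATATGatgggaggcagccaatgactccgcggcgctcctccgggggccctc
ID1: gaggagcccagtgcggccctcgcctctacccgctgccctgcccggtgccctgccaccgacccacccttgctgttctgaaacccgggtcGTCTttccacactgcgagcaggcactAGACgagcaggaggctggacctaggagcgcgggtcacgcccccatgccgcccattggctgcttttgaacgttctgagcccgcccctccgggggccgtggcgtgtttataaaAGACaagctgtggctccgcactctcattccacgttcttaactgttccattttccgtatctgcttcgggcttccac
ID3: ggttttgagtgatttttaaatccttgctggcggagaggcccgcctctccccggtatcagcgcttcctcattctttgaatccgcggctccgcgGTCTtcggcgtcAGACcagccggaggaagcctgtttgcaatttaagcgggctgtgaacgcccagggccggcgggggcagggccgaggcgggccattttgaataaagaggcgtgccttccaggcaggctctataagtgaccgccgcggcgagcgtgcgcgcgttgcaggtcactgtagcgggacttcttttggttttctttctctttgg
The ATOH8 window holds 3 E-boxes, which begin at -215, -55 and -1 from the start, and no GTCT on either strand. ID1 holds 3 GTCT matches and no E-box, ID3 holds 2 and no E-box, and SMAD6 holds 2 matches side by side at -12 and -8, with 1 E-box at -1. Over all 35116 RefSeq windows of 300 bases, 84.0% hold GTCT on either strand and 68.7% hold an E-box, so such matches are common among promoters. GGCGCC, a palindrome found in BMP-responsive elements, is in none of these 4 windows. It is in 3 of the 12 windows of the 10 genes, 1 each for BMP4 (which has 3 windows), BMPR2 and HAMP, against 19.2% of all windows. These are matches of letters in a short window, not binding sites.

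ID1, ID2 and ID3 differed from ATOH8 and from each other. ID1 (ENSG00000125968, chromosome 20, 31605283 to 31606515) was measured at 189, 397, 164 and 152 CPM at 40, 60, 80 and 100 µM, against 164, 124, 106 and 121 CPM in DMSO libraries 1 to 4. In TMM-scaled CPM the arms overlapped through DMSO library 1 alone. Scaled by library totals they did not overlap, at 147, 242, 210 and 193 CPM with lenvatinib against 140, 144, 140 and 119 CPM in DMSO. In the deposited TPM they overlapped, at 232 to 383 TPM with lenvatinib and 199 to 269 TPM in DMSO. Its mean was 225 ± 116 CPM with lenvatinib and 129 ± 24.6 CPM in DMSO (SD, n = 4 each). The log2 fold change was 0.81 ± 0.37 (SE), 0.40 ± 0.21 without the 60 µM library and 0.39 ± 0.14 with the GC covariate.

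ID3 (ENSG00000117318, chromosome 1, 23557918 to 23559794, minus strand) was measured at 614, 852, 335 and 315 CPM across the doses, against 609, 399, 252 and 493 CPM in DMSO. In TMM-scaled CPM its 40 and 60 µM libraries lay above the DMSO range and its 80 and 100 µM libraries inside it. Scaled by library totals, every lenvatinib library was inside the DMSO range (400 to 520 CPM, against 334 to 521 CPM). The same held in the deposited TPM (565 to 653 TPM, against 515 to 668 TPM). The log2 fold change was 0.27 ± 0.42, it was -0.05 ± 0.38 without the 60 µM library, and it was -0.22 ± 0.14 with the GC covariate, so its sign depended on the fit. ID3 thus showed no direction that held, although it shares the family and much of the regulation of ID1.

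ID2 (ENSG00000115738, chromosome 2, 8678845 to 8684453) was scarce, with 74, 10, 132 and 368 reads across the doses and 84, 108, 58 and 79 reads in DMSO. The 100 µM library stood out at 8.33 CPM, against 1.61 to 3.16 CPM at the other doses and 1.39 to 3.04 CPM in DMSO. Its log2 fold change of 0.70 ± 0.60 was 0.04 without the 100 µM library, and 0.84 ± 0.46 with the GC covariate was 0.09 without it. The annotated antisense gene ID2-AS1 shares 38 exon bases with ID2, and since strandedness is not given in the sources used here, its reads cannot be told apart there.

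The ratio of ATOH8 to the ID genes within a library is given as a description. ATOH8 and ID3 have nearly equal GC content (55.3% and 57.2%), and in DMSO their log2 levels followed the GC slope nearly alike (1.05 and 0.98 per unit). For ID1 these values were 58.6% and 0.43 per unit. The ratio of their deposited TPM values, which are scaled for transcript length, was 0.0762, 0.128, 0.0652 and 0.0627 at 40, 60, 80 and 100 µM. In DMSO libraries 1 to 4 it was 0.0213, 0.0196, 0.0202 and 0.0211. Each lenvatinib ratio was higher than each DMSO ratio. The ratio of ATOH8 to ID1 was 0.198, 0.218, 0.107 and 0.105 across the doses, against 0.0633, 0.0508, 0.0387 and 0.0686 in DMSO, where it was less even. The part of the GC axis in these ratios was not tested. The ratio of ID1 to ID3 overlapped between arms, at 0.384, 0.586, 0.611 and 0.600 with lenvatinib, against 0.336, 0.387, 0.523 and 0.307 in DMSO.

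**Figure D2:**
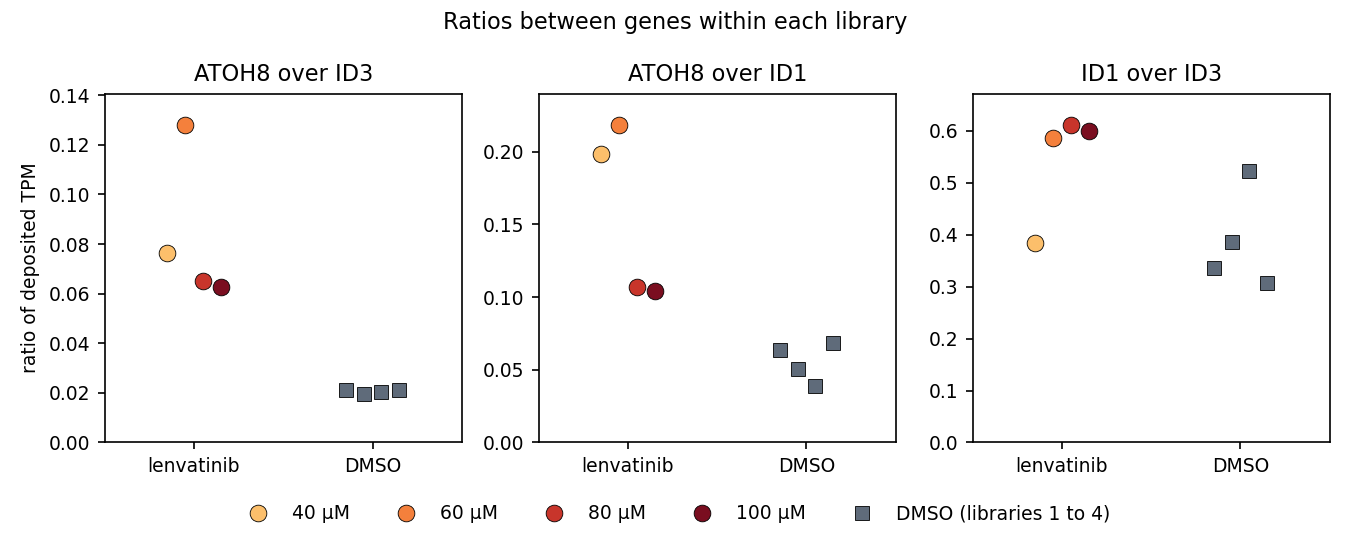
Ratios of deposited TPM between genes within each library, for lenvatinib (circles, shaded by dose) and DMSO (squares). The ATOH8 over ID3 ratio is 0.0196 to 0.0213 in DMSO and 0.0627 to 0.128 with lenvatinib, while the ID1 over ID3 ratios overlap.

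SMAD6 resembled ID1. SMAD6 (ENSG00000137834, chromosome 15, 66702228 to 66782848), which competes with receptor-activated SMADs, was measured at 42.8, 65.9, 34.2 and 33.0 CPM across the doses, against 32.0, 29.7, 26.0 and 29.9 CPM in DMSO. Every lenvatinib library exceeded every DMSO library, by a narrow margin, and the arms overlapped when scaled by library totals (33.3 to 43.8 CPM with lenvatinib, 27.3 to 34.6 CPM in DMSO) and in the deposited TPM. The mean was 44.0 ± 15.3 CPM with lenvatinib and 29.4 ± 2.49 CPM in DMSO (SD, n = 4 each), with a log2 fold change of 0.58 ± 0.30, 0.33 ± 0.19 without the 60 µM library and 0.29 ± 0.12 with the GC covariate. ATOH8 and SMAD6 are the 2 of the 10 genes whose arms did not overlap in TMM-scaled CPM, both with lenvatinib above, against 6.46% of the 11827 genes tested (3.08% with lenvatinib above and 3.38% below). Since this comparison chose the genes, nothing is read from that count.

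SMAD9 (ENSG00000120693, chromosome 13), a BMP-activated SMAD that is itself a target, and HAMP (ENSG00000105697, chromosome 19) were near the limit of detection and were not tested. SMAD9 had 6 and 5 reads at 80 and 100 µM, 4 reads in DMSO library 3 and 0 elsewhere. HAMP had 7 reads, all at 80 µM. A count of 0 allows up to 3 counts, which is between 0.0627 and 0.483 CPM depending on the library.

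BMP4 (ENSG00000125378, chromosome 14, 53949736 to 53958761, minus strand) was low and even in DMSO, at 1.67, 1.46, 1.51 and 1.52 CPM, and scattered with lenvatinib on both sides of that, at 1.50, 3.06, 1.13 and 2.29 CPM across the doses. Its log2 fold change was 0.35 ± 0.47, 0.11 ± 0.36 without the 60 µM library and 0.16 ± 0.33 with the GC covariate. With the covariate it was -0.29 without the 100 µM library.

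The receptors varied widely between libraries in both arms. BMPR1A (ENSG00000107779, chromosome 10, 86756601 to 86932838) was measured at 4.32, 0.483, 20.8 and 22.1 CPM at 40, 60, 80 and 100 µM, against 6.23, 17.3, 28.4 and 10.9 CPM in DMSO libraries 1 to 4. BMPR2 (ENSG00000204217, chromosome 2, 202376936 to 202567751) was measured at 2.56, 0.322, 10.8 and 8.40 CPM, against 3.95, 8.56, 14.4 and 6.30 CPM in DMSO. At 60 µM these are 3 and 2 reads. Both genes were low in the same libraries, the 40 and 60 µM ones and DMSO library 1.

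The receptor transcripts are AT-rich, with 40.6% and 37.6% GC, against a median of 49.1% over the genes tested. Their log2 levels followed the GC slope over the 8 libraries (Pearson r = -0.993 for BMPR1A and -0.987 for BMPR2), a description that includes all doses and DMSO. In the DMSO libraries alone the levels changed by -1.69 and -1.41 on the log2 scale per unit of GC slope (a description). The part of the GC axis in the receptor levels was not tested. The log2 fold changes were -0.39 ± 0.95 and -0.58 ± 0.88, and with the GC covariate 0.14 ± 0.17 and -0.07 ± 0.21 (SE). Without the covariate they were 0.03 and -0.17 when the 60 µM library was left out, and 0.48 and 0.24 with only the 80 and 100 µM libraries. BMPR1A was also at 0.06 without DMSO library 3, so the sign of neither held. GENCODE 29 lists the processed pseudogenes BMPR1AP1 and BMPR1AP2, and how reads shared with them were counted is not given in the sources used here, so the BMPR1A level is uncertain.

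**Figure D3:**
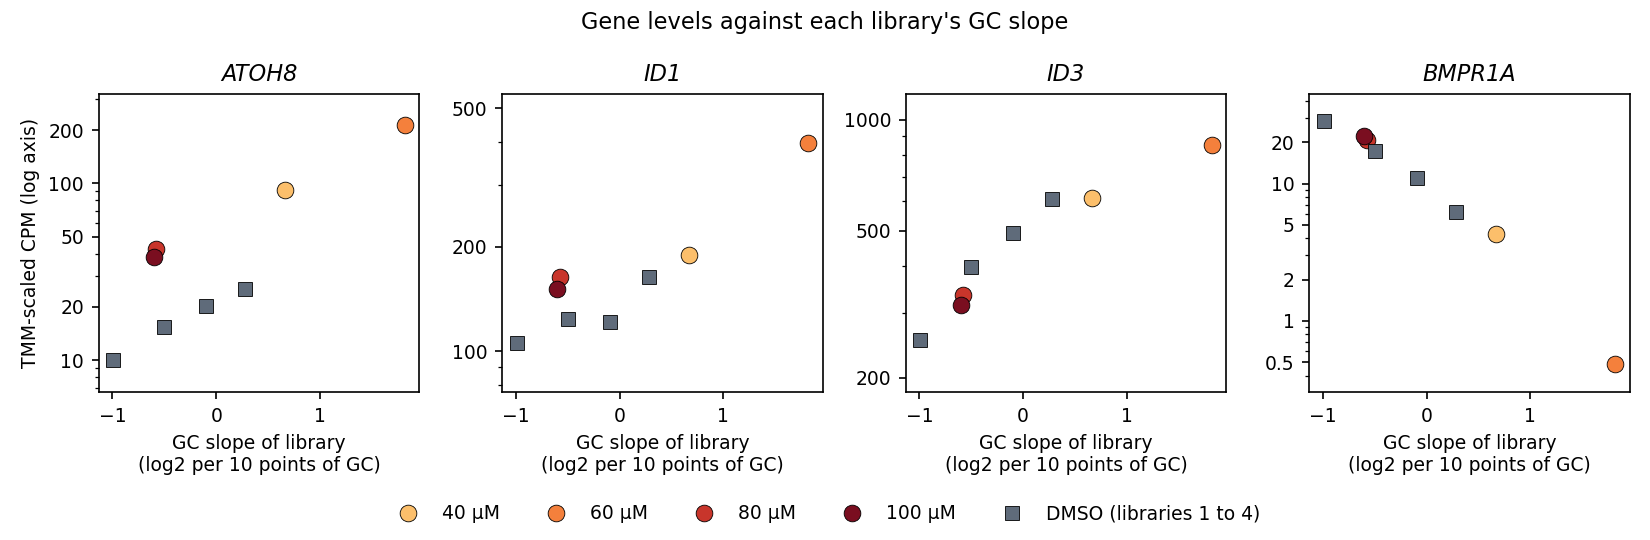
Level of 4 genes (TMM-scaled CPM, log axis) against the GC slope of each library, for lenvatinib (circles, shaded by dose) and DMSO (squares). ATOH8 at 80 and 100 µM (42.7 and 38.5 CPM) lies well above the DMSO libraries of like slope, while ID3 and BMPR1A at these doses lie near them.

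Libraries with like GC slopes can be set side by side. The 80 and 100 µM libraries (-0.58 and -0.60) are closest to DMSO library 2 (-0.50), a choice made after the values were seen. ATOH8 was at 42.7 and 38.5 CPM at these doses, against 15.3 CPM in that DMSO library, and ID1 at 164 and 152 CPM, against 124 CPM. ID3 was at 335 and 315 CPM, against 399 CPM, and SMAD6 at 34.2 and 33.0 CPM, against 29.7 CPM. BMPR1A was at 20.8 and 22.1 CPM, against 17.3 CPM, and BMPR2 at 10.8 and 8.40 CPM, against 8.56 CPM. ID2 was at 2.76 and 8.33 CPM, against 3.03 CPM, and BMP4 at 1.13 and 2.29 CPM, against 1.46 CPM. ATOH8 stood more than 2 times above that library at both doses, and ID2 at 100 µM. The comparison rests on single libraries and has no replicate check.

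With the GC covariate, edgeR called 1 of the 8 tested genes, ATOH8, at a Benjamini-Hochberg adjusted p under 0.05, against 3.26% of all genes tested. No gene at all was called without the covariate (0%; 523 genes had an unadjusted p under 0.05 and DESeq2 called 94, of which ATOH8 was 1). The calls over all genes, 175 higher and 211 lower, shifted with the scaling, to 362 higher and 653 lower with DESeq2 size factors and 419 higher and 249 lower with library totals. Without the 80 µM library 0 genes were called, ATOH8 among those lost. Without the 60 µM library 3 of the 8 were called, ATOH8, ID1 and SMAD6, in a fit that called 2763 genes over all. Without the 40 µM library ATOH8 and ID1 were called, in a fit that called 1006 genes over all. Since this comparison chose the genes, the calls are a description.

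The change with dose inside the lenvatinib arm was not used to choose the genes, and none of the 8 passed its test. Without the covariate ATOH8 had a slope of -0.71 ± 0.37 on the log2 scale per 20 µM (SE; edgeR adjusted p = 0.295), ID3 -0.44 ± 0.25 (adjusted p = 0.295) and BMPR1A 1.01 ± 0.53 (adjusted p = 0.295). The ATOH8 slope was -1.23 without the 40 µM library, -0.42 without the 60 µM library and -0.33 with library totals, and the BMPR1A slope was 2.44 without the 40 µM library. For ID3 it was -0.72 without the 40 µM library and -0.11 with library totals. The slopes of ID1 and SMAD6, -0.28 and -0.23, were 0.09 and 0.11 when libraries were scaled by totals. With the covariate the ATOH8 slope was 0.02 ± 0.08 (adjusted p = 0.995), that of ID3 -0.02 ± 0.11 and that of BMPR1A -0.03 ± 0.15. GC slope and dose moved together, since the 40 and 60 µM libraries had the high slopes. ID2 and BMP4 had slopes of 0.47 ± 0.33 and 0.36 ± 0.23 with the covariate, and the ID2 slope was -0.14 without the 100 µM library. Over all genes the dose test called 0 without the covariate (0%; 875 at an unadjusted p under 0.05, 131 called by DESeq2) and 0 with it (0%; 287 and 14).

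**Figure D4:**
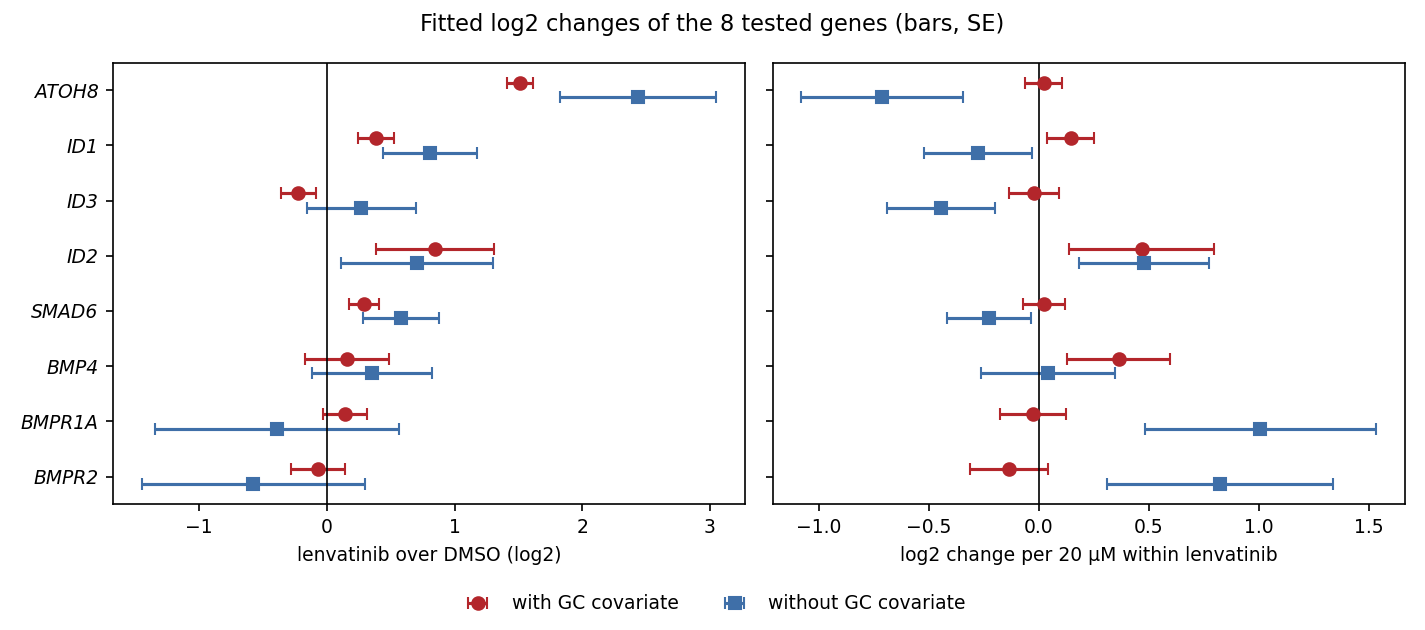
Fitted log2 changes of the 8 tested genes with SE bars, for lenvatinib over DMSO (left) and per 20 µM within the lenvatinib arm (right), with (circles) and without (squares) the GC covariate. ATOH8 stands at 1.51 and 2.44 in the left panel, and with the covariate its dose slope is 0.02.

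Levels between genes can be read from the deposited TPM. ID3 was the most abundant, at 611 ± 36.8 TPM with lenvatinib and 621 ± 70.9 TPM in DMSO (SD, n = 4 each), followed by ID1 at 333 ± 70.3 and 236 ± 30.7 TPM. ATOH8 came next with lenvatinib, at 51.4 ± 21.9 TPM against 12.8 ± 1.67 TPM in DMSO, and all 4 lenvatinib libraries (35.4 to 83.6 TPM) again lay above DMSO (10.4 to 14.2 TPM). SMAD6 was at 21.9 ± 7.56 and 16.4 ± 3.35 TPM, so that in DMSO its range overlapped that of ATOH8. ID2 (4.39 ± 3.98 and 3.25 ± 1.04 TPM), BMPR1A (2.74 ± 2.83 and 3.93 ± 3.66 TPM), BMP4 (1.95 ± 1.15 and 2.02 ± 0.33 TPM) and BMPR2 (1.04 ± 1.05 and 1.53 ± 1.21 TPM) did not differ beyond their spread. Counts per TPM, relative to those of ID1 in the same library, were even for ATOH8 (2.43 to 2.45) but were 2.32 for SMAD6 at 100 µM, against 3.18 to 3.62 in the other libraries, so the SMAD6 TPM at 100 µM rests on a shorter assigned length. They were also uneven for BMP4 (1.03 to 2.15), ID2 (1.29 to 2.07) and BMPR1A (8.05 to 14.1), whose TPM values shift with them.

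The genes whose levels were most like those of ATOH8 over the 8 libraries, among the 9440 genes that averaged 5 CPM or more, were TMEM8B, EPHX1, PPP1R3F, PGAP3 and C3orf18, with Pearson r between 0.992 and 0.995 and Spearman rho between 0.976 and 1. EPHX1 is microsomal epoxide hydrolase, a detoxifying enzyme. It stood at 745, 2103, 433 and 345 CPM across the doses, against 285, 150, 85.2 and 225 CPM in DMSO. These 8 points share the GC axis and the arms. With the GC slope regressed out, the nearest were S1PR3, GCLM, CXCL16, ADGRB2 and TFE3 (r between 0.991 and 0.998), and 0 of the 5 genes were shared. SMAD6 followed ATOH8 at r = 0.964, ID1 at 0.941 and ID3 at 0.717. After the GC slope was regressed out the values were 0.876, 0.763 and -0.554.

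The rest of the pathway was read from 61 further genes, listed by role, of which 36 reached the level that was tested. Without the GC covariate 0 were called, against 0% of all genes. With it 1 was called, FSTL3, which was lower with lenvatinib, and 0 were called higher, against 1.78% and 1.48% of all genes. The median log2 fold change of the 36 was -0.19 without and 0.02 with the covariate, beside -0.11 and -0.06 over all genes. FSTL3 (ENSG00000070404, chromosome 19, 676365 to 683399) is a secreted relative of follistatin that binds activins and related ligands. It was measured at 148, 104, 114 and 112 TPM across the doses, against 214, 207, 187 and 211 TPM in DMSO, with no overlap, and at 188 ± 90.5 CPM with lenvatinib and 277 ± 89.5 CPM in DMSO (SD, n = 4 each), where the arms overlapped. Its log2 fold change was -1.02 ± 0.20 (edgeR adjusted p = 0.0386) with the covariate and -0.56 ± 0.42 without it (adjusted p = 0.874). The call was lost without the 80 µM library (adjusted p = 0.251), the 100 µM library (0.225) or DMSO library 1 (0.152), 2 (0.108), 3 (0.0569) or 4 (0.169). Its log2 fold changes there were between -1.06 and -0.95, and over the alternatives with the covariate the adjusted p ran from 1.54e-09 to 0.251.

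Among the secreted antagonists, follistatin itself (FST) was below the DMSO range in all 4 lenvatinib libraries, at 2.56, 0.643, 1.50 and 1.38 CPM, against 3.84, 3.34, 3.50 and 4.28 CPM in DMSO. It was not called (log2 fold change -1.22 ± 0.36 with the covariate, edgeR adjusted p = 0.114). Noggin (NOG), which sequesters BMPs, was at 5.97 ± 1.17 CPM with lenvatinib and 3.73 ± 1.13 CPM in DMSO and was not called (0.79 ± 0.29 with the covariate, adjusted p = 0.174). Chordin (CHRD) was at 26.1 ± 13.8 and 13.4 ± 2.03 CPM (0.45 ± 0.19, adjusted p = 0.216). Values are SD with n = 4 each for levels and SE for fold changes.

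Of the ligands, BMP2 and BMP6 were the most abundant and BMP7 had 0 reads. BMP2 was measured at 19.2, 2.73, 25.7 and 31.7 CPM across the doses, against 29.04, 51.3, 56.8 and 43.6 CPM in DMSO, and was not called (log2 fold change -0.78 ± 0.30 with the covariate, edgeR adjusted p = 0.192). BMP6, the ligand that drives hepcidin in liver, was below the DMSO range at every dose in TMM-scaled CPM, at 27.5, 6.59, 28.0 and 25.1 CPM against 34.5, 39.7, 30.9 and 35.6 CPM. In TPM the arms overlapped (2.22 to 23.3 TPM with lenvatinib, 17.0 to 29.1 TPM in DMSO). It was not called (-0.48 ± 0.31, adjusted p = 0.428). Among the iron sensing genes TFR2, a transferrin receptor of hepatocytes, was at 77.3 ± 53.6 CPM with lenvatinib and 63.3 ± 20.4 CPM in DMSO (SD, n = 4 each), with log2 fold changes of 0.29 without and -0.50 with the covariate, neither called. HJV, the BMP co-receptor haemojuvelin, had 0 reads, and TMPRSS6, the protease that cleaves it, had 37 over the 8 libraries.

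Of the other receptors, ACVR1, ACVR2A and ACVR2B were tested and none was called (log2 fold changes with the covariate -0.40, 0.83 and -0.22). BMPR1B had 122 reads in all and was not tested. The receptor-activated SMAD1 and SMAD5, the common partner SMAD4 and the inhibitory SMAD7 had log2 fold changes of -0.22, -0.36, -0.25 and -0.11 when GC was left out of the fit and 0.23, 0.27, 0.09 and 0.22 when it was in, so that all 4 changed sign, and none was called. BAMBI, a pseudoreceptor, was at 24.8 ± 6.19 CPM with lenvatinib and 23.7 ± 1.60 CPM in DMSO (SD, n = 4 each). ID4 had 0 reads. Of the E proteins that ID proteins bind, TCF3 was at 126 ± 39.1 CPM with lenvatinib and 119 ± 14.3 CPM in DMSO and TCF12 at 17.4 ± 14.1 and 24.0 ± 14.7 CPM, neither called, and TCF4 had 100 reads in all.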

How the data were processed

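Per the file headers, the table deposited by the authors holds read counts, TPM and FPKM per gene for each library. GRCh38 and the tools HISAT2, StringTie, FastQC and bedtools are listed per the submitters' processing notes, while annotation release and strandedness were not given in the sources used here. Each library's FPKM as deposited is a constant share of its TPM and was not used further.

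Counts were fitted with edgeR 4.0.16 under R 4.3.3 (TMM, robust quasi-likelihood) for 11827 genes averaging 1 CPM or more, with p-values adjusted over all of them (Benjamini-Hochberg, threshold 0.05). The 4 fits were lenvatinib against DMSO (6 residual degrees of freedom), the same with the GC slope as covariate (5), and the slope on dose (centred at 70 µM) next to a term for the arm (5), also with the covariate (4). GC content is that of the longest GENCODE 29 transcript. Positions are those of the table. Promoter sequences are from RefSeq (GRCh38.p14), matched by symbol for all 10 genes. Fits were also run on simulated counts, with a GC trend taken from the same GC slopes and the same fixed spread for every gene. That run cannot show how the fits behave on these libraries.

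The genes and lists were chosen with earlier results of these data known. Named beside the 10 genes are called genes of the BMP list, a fixed set of 20 pathway genes and the 5 genes most like ATOH8; FST, CHRD and the second set of 5 were named after their values were seen. Alternatives were DESeq2 1.42.0, other scalings and filters, a replicate block, only the 80 and 100 µM libraries, and leaving out each library. Limits from counts cover counting error only.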

Additional observations from a re-analysis of the deposited data

Results flagged for a closer look

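In 1 of 16 sets of 4 libraries (8 genes in each arm), a library stood far from the others. ID1 was measured at 397 CPM at 60 µM, while the other doses lay between 152 and 189 CPM, a gap of 0.849 of the range, above Dixon's 95% critical value for 4 samples. Chance flags about 1 in 20 such sets. The 60 µM library also had the fewest counts (10181973) and the highest GC slope (1.82), and their part in this value was not tested. Without it the ID1 log2 fold change for lenvatinib over DMSO was 0.40 ± 0.21 (SE).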

How the results depend on the processing

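The number of genes called for lenvatinib against DMSO, 0 with edgeR, was 94 with DESeq2. With the GC covariate it was 386, and it was 1015 with DESeq2 size factors, 668 with library totals, 254 with no filter, 2038 with DESeq2, 2483 with only the 80 and 100 µM libraries, and between 0 (without 80 µM) and 2763 (without 60 µM) when each library was left out. The dose slope called 0 genes, and DESeq2 called 131 without and 14 with the covariate. Calls in the BMP list outside the 10 genes, 0 without the covariate, were 1 with it, 2 with DESeq2 size factors or a filter at 5 CPM, 6 with DESeq2, 8 with only the 80 and 100 µM libraries, and 0 to 11 over the left-out libraries. Arms that did not overlap fell to 1 of the 10 genes in TPM. The share over all genes was not computed in TPM, so nothing is read from that count. Of the 5 genes most like ATOH8, 0 were shared once the GC slope was regressed out. The cause of these shifts was not tested.

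Dose slopes near 0 changed sign. Without the covariate, ID1 and SMAD6 were 0.087 and 0.11 with library totals, and over the left-out libraries BMP4 ran from -0.20 to 0.18 and ID2 from -0.10 to 1.20. With the covariate, ID3 was 0.054 with DESeq2 size factors, 0.031 with library totals and 0.054 with DESeq2, and BMPR1A was 0.016, 0.013 and 0.038. Over the left-out libraries the ranges were -0.043 to 0.082 for ATOH8, -0.13 to 0.27 for ID1, -0.082 to 0.18 for ID3, -0.14 to 0.073 for SMAD6, -0.13 to 0.25 for BMPR1A and -0.14 to 1.78 for ID2. The ATOH8 difference between arms kept its sign in all 15 alternatives of each fit, at 1.23 to 2.70 without and 1.46 to 1.63 with the covariate.

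For libraries that share a number in the 2 arms, deviations from the arm means had correlations of 0.63, -0.46, 0.84 and -0.61. The signs are mixed and the libraries share the GC axis, so these values cannot show whether the numbers pair them. With a replicate block 0 genes were called, and 232 with the block and the GC covariate.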
